A study of Homo sapiens with 18 samples.

Results

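D425 and D458 are human cell lines that serve as models of Group 3 medulloblastoma, a cerebellar tumour of childhood, and this account compares the 2 lines in their control state. Its members are the 6 libraries of cells that carried a non-targeting hairpin, 3 of D425 and 3 of D458, out of 18 libraries in all. The other 12 libraries carried hairpins against EYA2 (hairpins 6 and 8 in D425, hairpins 7 and 8 in D458), a phosphatase that co-activates transcription together with homeobox partners. Control cells went through the same steps as the others, per the labels' protocols: transduction, 48 h of puromycin (1 µg/mL), a sort that kept the brightest 10% for zsGreen, and 24 h of recovery before RNA extraction. The study's design text describes the 3 libraries of a group as independent biological replicates. The question asked here, which genes set the lines apart before EYA2 was targeted, is the baseline against which the hairpin effects of each line were measured.

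Group 3 tumours are known for high MYC and for a partial photoreceptor programme driven by the homeobox factors OTX2 and CRX, which normally direct the development of retinal photoreceptors and pinealocytes. D425 and D458 are generally described in the field as lines from a primary tumour and a later metastatic deposit of the same patient. They grow in culture as loosely attached or floating clusters of tumour cells without stroma.

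The control libraries held 26750192, 26771216 and 31552051 counts in D425 and 23933336, 21517711 and 25349911 in D458. Levels are counts per 1000000 counts of the scaled library total (CPM), a scale that does not correct for gene length, so levels are compared between lines and not between genes. Values are given for replicates 1, 2 and 3 in that order. A log2 fold change is D458 minus D425 with its standard error, and each adjusted p comes from edgeR's quasi-likelihood test with Benjamini-Hochberg correction over 14850 genes. A gene was called at an adjusted p under 0.05. In both lines replicate 1 stood further from the other two than those stood from each other: the SD over genes of the log2 difference between libraries was 0.365 and 0.411 against 0.218 in D425, and 0.296 and 0.288 against 0.139 in D458. The labels give replicates 2 and 3 of both lines a single date, whereas replicate 1 has an earlier date that differs between D425 and D458, so for replicate 1 the date and the line cannot be told apart.

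Of the 14850 genes tested, 9322 were called, 62.8% of them, with 4662 higher (31.4%) and 4660 lower (31.4%) in D458. Among these, 1894 were at least 2-fold higher and 2242 at least 2-fold lower, and 643 were at least 8-fold higher and 893 at least 8-fold lower. Within the later date alone, that is without replicate 1 of every group, 9474 genes were called. For 69.4% of the genes tested the libraries of the lines did not overlap. Because most genes differed, the share called or without overlap in any group of genes has to be read against these percentages. In the plot of gene levels in both lines, each side of the diagonal has a cloud of genes that were at or near 0 in the other line.

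**Figure D1:**
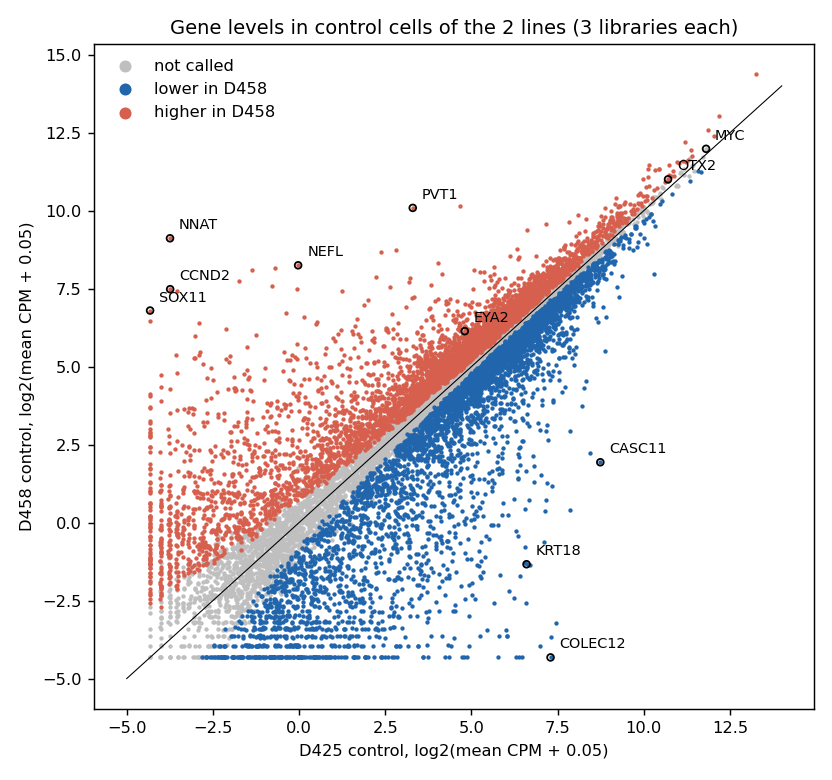
Mean level of each tested gene in the 3 D425 control libraries (x axis) and the 3 D458 control libraries (y axis), both as log2 of CPM plus 0.05, with called genes in colour and the line of equal level in black. MYC lies near the line, SOX11, NNAT and CCND2 lie at the left edge with almost no counts in D425, and COLEC12 lies at the lower edge with none in D458.

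Hairpin 8 was used in both lines, so the same line difference could be read in the levels of 6 other libraries, although EYA2 was targeted in those. There, 8972 genes were called (60.4%), 4352 higher (29.3%) and 4620 lower (31.1%) in D458. Of the 9322 control calls, 6962 (74.7%) were called in the same direction, 100 in the opposite direction and 2260 were not called. The 6962 shared calls were 77.6% of the hairpin 8 calls. For control calls of at least 2-fold the share called in the same direction was 84.2% (3482 of 4136), and for those of at least 8-fold it was 93.0% (1428 of 1536). Across the 14850 genes the 2 sets of line differences correlated at r = 0.886. Genes are not independent replicates, and both sets share the lines, the annotation and the counting. All 18 libraries were fitted together, so both sets of calls also share the filter, the scaling and the estimate of spread. The size of the line difference itself differed between hairpin 8 and control libraries for 1758 genes (11.8%), among them 49 of the 171 genes given with values here. Many of those 171 were named for their differences in the controls.

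EYA2 itself was higher in D458 controls, with 43.6, 24.6 and 15.5 CPM in D425 and 73.7, 67.5 and 69.8 CPM in D458. The lines did not overlap, and the D425 libraries were spread over a wider range than the D458 libraries. The log2 fold change was 1.33 ± 0.27 (adjusted p = 3.8e-04). With hairpin 8 the line difference was 0.53 and was not called (adjusted p = 0.10). Its paralog EYA1 had 3 counts over the D425 libraries and 29.4, 27.03 and 26.9 CPM in D458, a count ratio of 793 (95% counting interval 271 to 3850.1). Of the 10 tested genes of the network of EYA and DACH factors and their homeobox partners, 4 were higher and 4 were lower. DACH1 (1.32 ± 0.30) was higher in D458, and SIX2 (-1.40 ± 0.12), SIX4 (-0.62 ± 0.14) and SIX5 (-0.35 ± 0.10) were lower.

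The tumour markers were read next, to check the labelled cell type. MYC, the oncogene that marks the most aggressive Group 3 tumours, had 3348, 3660.2 and 3736 CPM in D425 and 3993, 4092 and 4058 CPM in D458. Every D458 library was above every D425 library, but the log2 fold change of 0.18 ± 0.10 was not called (adjusted p = 0.12). With the 6 control libraries fitted alone it was 0.16 and was called (adjusted p = 0.032), and in the hairpin 8 libraries it was 0.47 (adjusted p = 4.9e-04). MYCN, its paralog, had 7 counts over the D425 libraries and 1 over the D458 libraries. OTX2 had 1526, 1580.0 and 1895 CPM in D425 and 1767, 2194 and 2204 CPM in D458. The ranges overlapped, and the call (0.30 ± 0.12, adjusted p = 0.039) was lost without D425 replicate 1 or 2 and without D458 replicate 2 or 3, with adjusted p of 0.12 to 0.16.

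Of the 13 tested Group 3 and photoreceptor markers, 5 were higher and 5 lower in D458, a share called of 76.9% beside 62.8% of all genes. CRX, the photoreceptor homeobox factor, had 21.3, 30.1 and 26.8 CPM in D425 and 24.5, 20.4 and 18.2 CPM in D458 and was not called (-0.31 ± 0.19), whereas within the later date alone it was lower in D458 (-0.56, adjusted p = 0.0025) and in the hairpin 8 libraries it was higher (1.01). NRL, the leucine zipper factor of rods, had 15.8, 15.03 and 17.4 CPM in D425 and 49.1, 18.4 and 18.1 CPM in D458. Replicate 1 of D458 stood apart from all other libraries, and the log2 fold change of 0.83 ± 0.33 (adjusted p = 0.041) was 0.17 without it (adjusted p = 0.59). IMPG2, a matrix proteoglycan around photoreceptors, had 481, 539.8 and 516 CPM in D425 and 421, 437 and 428 CPM in D458 (-0.26 ± 0.09, adjusted p = 0.020), a call that was lost without D425 replicate 2 (adjusted p = 0.077). GABRA5, a GABA receptor subunit used to class Group 3 tumours, was not called (0.11 ± 0.20). NPR3, another marker of that class, held 2 counts in D425 and 0 in D458.

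Markers of other cell types and tumour subgroups were mixed, with some at or near 0 and others expressed. AQP4 of astrocytes, HBB of red cells and WIF1, EMX2 and DKK4 of WNT tumours had no count in any control library. EOMES and ATOH1, which mark Group 4 and SHH tumours, had 2 and 1 counts in D425 and none in D458. PECAM1 of endothelium had 4 and 13 counts, CD3E of T cells 3 and 0, EPCAM of epithelium 6 and 3, and COL1A2 of fibroblasts 15 and 15. The lists of other cell types and subgroups also held members that passed the filter on low counts. These were 2 of 5 astrocyte markers, 1 of 6 oligodendrocyte, 4 of 6 myeloid and lymphoid, 2 of 5 endothelial, 4 of 5 fibroblast, 2 of 4 epithelial, 1 of 4 erythroid, 2 of 8 Group 4, 7 of 10 SHH and 5 of 10 WNT markers.

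The glial glutamate transporter SLC1A3, of the astrocyte list, had 51.8, 43.2 and 48.2 CPM in D425 and 109.8, 76.97 and 80.7 CPM in D458 (0.90 ± 0.18). OLIG2, a bHLH factor of the oligodendrocyte lineage, had 16.9, 12.98 and 15.2 CPM in D425 and 24.4, 32.5 and 31.96 CPM in D458 (0.98 ± 0.12). PDGFRB, the platelet-derived growth factor receptor of mesenchymal cells, had 18.98, 26.5 and 14.2 CPM in D425 and 3.51, 4.30 and 4.76 CPM in D458 (-2.24 ± 0.35), and PDLIM3, used as a marker of SHH tumours, had 17.7, 17.3 and 16.5 CPM in D425 and 91.8, 45.6 and 48.5 CPM in D458 (1.85 ± 0.25). SLC1A3, OLIG2 and PDLIM3 were thus higher in D458 and PDGFRB was higher in D425. Summed over the tested members of a list, the level per library ran from 43.7 to 52.8 CPM in D425 and from 77.02 to 109.8 CPM in D458 for astrocyte markers, and from 16.1 to 29.9 CPM and 6.70 to 8.04 CPM for fibroblast markers. Myeloid and lymphoid markers summed to 3.77 to 5.48 CPM in D425 and 6.88 to 9.48 CPM in D458, and endothelial markers to 1.52 to 2.91 CPM and 1.24 to 1.95 CPM. The WNT list, with TNC and LEF1 in it, summed to 21.96 to 36.1 CPM in D425 and 96.1 to 412 CPM in D458, and the SHH list to 67.4 to 74.8 CPM and 82.2 to 133 CPM. The part of other cell types in the line differences was not tested.

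The simple epithelial keratins KRT8 and KRT18 were both expressed in D425. KRT18 had 84.8, 142 and 63.5 CPM in D425 and 0.489, 0.342 and 0.209 CPM in D458, and KRT8 had 34.6, 63.7 and 13.4 CPM in D425 and 0.577, 0.195 and 0.209 CPM in D458. The lines did not overlap for either gene, and the log2 fold changes were -8.12 ± 0.44 (adjusted p = 3.6e-10) and -6.80 ± 0.64 (adjusted p = 2.4e-07). KRT8 varied among the D425 libraries, and its log2 fold change was -6.17 without D425 replicate 2 and -7.50 without D458 replicate 1.

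The genes that were highest in D458 relative to D425 included regulators of neuronal differentiation and of the cell cycle. SOX11, a transcription factor of immature neurons, had 0, 0 and 0 CPM in D425 and 101, 123 and 110.3 CPM in D458. With no count in any D425 library, it was at least 1053-fold higher in D458 (adjusted p = 2.1e-13). NNAT, an imprinted gene of the developing brain, had 0.0366, 0.0373 and 0 CPM in D425 and 688, 502 and 473 CPM in D458, from 2 counts over the 3 D425 libraries. The count ratio was 23724 (95% counting interval 6567 to 195910.0). CCND2, a D-type cyclin that drives entry into S phase, had 0, 0.0746 and 0 CPM in D425 and 145, 196 and 196 CPM in D458, a count ratio of 7653 (95% counting interval 2118 to 63201). All 3 of these genes were high in each D458 library and almost silent in each D425 library. In the hairpin 8 libraries SOX11 and CCND2 remained higher in D458. Their fitted line differences were 4.59 and 3.79 log2 units smaller there. With 0 and 2 counts in the D425 controls, these sizes depend on the prior count of the fit. The mean D458 levels of SOX11 and CCND2 were 111 and 179 CPM in the controls and 103 and 187 CPM with hairpin 8.

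THBS4, an adhesive glycoprotein of the thrombospondin family, had no count in D425 and 91.01, 85.9 and 88.7 CPM in D458, at least 838-fold higher (adjusted p = 4.8e-11). TSPAN11, a tetraspanin of the cell surface, had 3 counts in D425 and 189, 160.0 and 164 CPM in D458. KLF8, a zinc finger factor, and FUT4, the fucosyltransferase that makes the CD15 antigen, had no count in D425, and were at least 158-fold and 120.5-fold higher. MARC1, a mitochondrial reductase, and ADAMTS2, a procollagen peptidase, were likewise at 0 in D425 and at least 163-fold and 122-fold higher. CNNM1, TCEAL7 and KBTBD11 completed the 12 largest, with 1, 1 and 3 counts over the D425 libraries against 1758, 1363 and 2750 in D458.

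On the other side stood genes of the matrix, of receptors and of retinoic acid synthesis. COLEC12, a scavenger receptor with a collagen-like stalk, had 76.1, 229.9 and 165 CPM in D425 and 0, 0 and 0 CPM in D458. It was at least 1162-fold lower in D458 (adjusted p = 5.2e-05), although D425 replicate 1 was below the other two D425 libraries. ROR2, a receptor tyrosine kinase for WNT5A, had 64.4, 93.4 and 90.2 CPM in D425 and 0, 0 and 0 CPM in D458, at least 612-fold lower (adjusted p = 1.4e-12). ALDH1A2, the enzyme that makes retinoic acid in the embryo, had 69.7, 77.9 and 86.3 CPM in D425 and 0, 0 and 0 CPM in D458, at least 578-fold lower (adjusted p = 1.4e-11). These 3 genes had no count in any D458 control library.

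AFF3, a nuclear factor of the AF4 family, was at least 405-fold lower in D458. ZNF516 held 10996 counts in D425 and 1 in D458, and MAB21L2, a gene of eye development, 13633 and 2. B4GALT6, a lactosylceramide synthase, was at least 216-fold lower, the protocadherin PCDH1 at least 204-fold, and PIANP, a ligand of an immune receptor, at least 194-fold. For LINC00221 and the adhesion molecule NCAM2 the bounds were 151-fold and 138-fold. By a fixed rule of one-line expression (above 5 CPM in every library of a line and at most 0.1 CPM in every library of the other), 41 genes belonged to D425 and 28 to D458. In the hairpin 8 libraries 41 and 27 of them were called in the same direction.

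The smallest adjusted p values marked genes whose line difference was large beside its standard error. MSN, which encodes moesin, a linker between membrane and actin, had 0.402, 0.298 and 0.318 CPM in D425 and 264, 281 and 268 CPM in D458 (9.62 ± 0.24, adjusted p = 2.5e-14). REC8, a meiotic cohesin subunit, had 0.475, 0.336 and 0.762 CPM in D425 and 192, 186 and 193 CPM in D458 (8.46 ± 0.23, adjusted p = 6.2e-14). PDLIM4, an actin-associated LIM protein, was also higher (3.62 ± 0.10). In the other direction, PALD1, a phosphatase-like protein of the vasculature, had 87.8, 96.5 and 97.5 CPM in D425 and 0.444, 0.489 and 0.668 CPM in D458 (-7.44 ± 0.16, adjusted p = 1.1e-14). RAB34, a small GTPase needed for cilia, and CTSV, a lysosomal cysteine protease, differed by -8.66 ± 0.21 (-9.41 without D458 replicate 3) and -6.22 ± 0.17. GLS2, the liver-type glutaminase, held 4732 counts in D425 and 2 in D458. BCMO1, which cleaves beta-carotene to retinal, had 90.1, 87.4 and 72.7 CPM in D425 and 4.22, 4.11 and 4.42 CPM in D458 (-4.29 ± 0.13). The ranges of the lines were far apart for each of these genes, which were named for their small adjusted p.

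**Figure D2:**
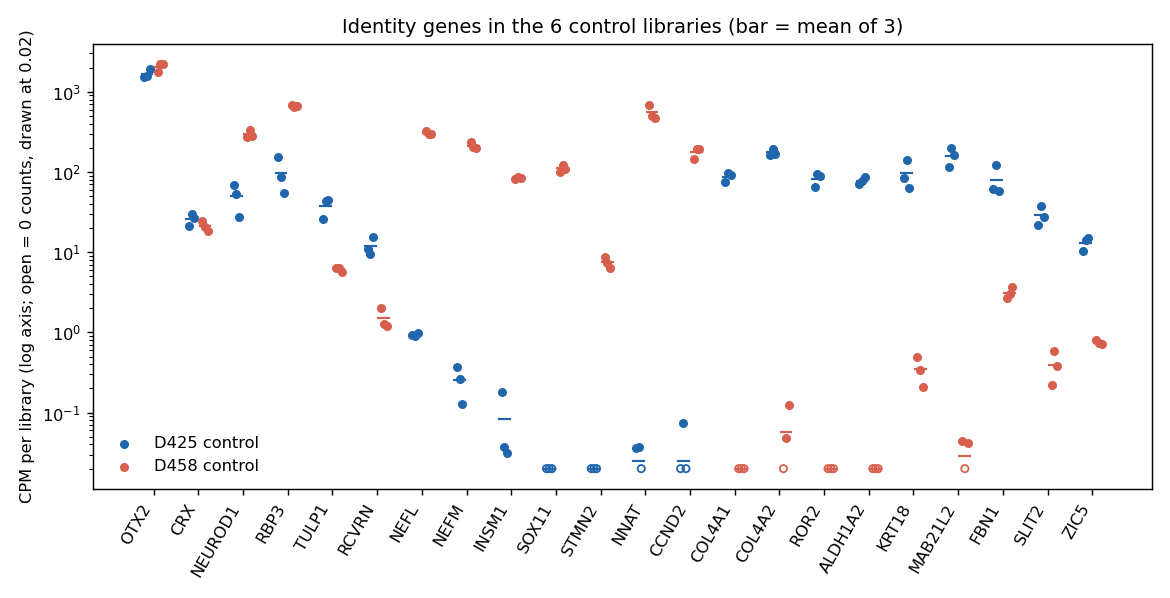
Level of 22 genes in each of the 6 control libraries, as CPM on a log axis, with D425 in blue, D458 in red, short bars for the mean of 3 libraries and open points for libraries with no count, drawn at 0.02. OTX2 and CRX overlap between the lines, whereas neurofilament NEFL is near 1 CPM in every D425 library and near 300 CPM in every D458 library, and COL4A1 is absent from every D458 library.

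Neuronal genes were read as a group because both lines come from a neural tumour. Neurofilaments are the intermediate filaments of axons, and INSM1 is a zinc finger repressor that neuronal and neuroendocrine precursors switch on as they leave the cell cycle. NEFL, the light neurofilament chain, had 0.914, 0.895 and 0.984 CPM in D425 and 321, 295 and 295 CPM in D458 (8.34 ± 0.23, adjusted p = 7.6e-14). NEFM, the middle chain, had 0.366, 0.261 and 0.127 CPM in D425 and 233, 206 and 198 CPM in D458 (9.73 ± 0.36, adjusted p = 2.5e-12). INSM1 had 0.183, 0.0373 and 0.0318 CPM in D425 and 80.6, 86.4 and 85.02 CPM in D458, a log2 fold change of 9.92 ± 0.28 (adjusted p = 7.6e-14) that was 11.06 without D425 replicate 1. All 3 were high in every D458 library and low in every D425 library. STMN2, a microtubule regulator of growth cones, had no count in D425 and 8.62, 7.43 and 6.38 CPM in D458, at least 70.8-fold higher. NCAM1, the neural adhesion molecule, had 2.63, 0.0373 and 0.0318 CPM in D425 and 65.6, 47.1 and 44.9 CPM in D458. D425 replicate 1 stood above the other two, and the log2 fold change of 5.90 ± 0.74 was 10.39 without it.

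Not all neuronal lists leaned the same way. Of 7 tested neural markers 4 were higher and 0 lower in D458 (median log2 fold change 2.44), a share called of 57.1% beside 62.8% of all genes. Of 50 tested genes of the neuronal cytoskeleton and synaptic vesicles, 17 were higher (31.4% of all genes were) and 16 were lower (31.4%), with a median log2 fold change of 0.04 beside 0.01 over all genes. The pan-neuronal tubulin TUBB3 had 37.3, 41.9 and 27.5 CPM in D425 and 42.4, 25.2 and 24.2 CPM in D458 and was not called (-0.22 ± 0.31). RIMS1, an active zone scaffold, and NRXN3, a presynaptic adhesion protein, were lower in D458 (-3.22 ± 0.30 and -4.11 ± 0.42, the latter -4.75 without D458 replicate 1). NLGN1, a postsynaptic partner of neurexins, held 179 counts in D425 and 2 in D458. In the hairpin 8 libraries the NLGN1 line difference of -0.67 was not called.

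Among 22 tested neurogenic transcription factors 11 were higher and 5 lower in D458, with a median log2 fold change of 0.90. NEUROD1, a bHLH factor of cerebellar granule neurons and photoreceptors, had 68.8, 53.8 and 27.1 CPM in D425 and 272, 331 and 279 CPM in D458 (2.56 ± 0.24, adjusted p = 1.7e-07). POU4F1, a POU factor of sensory neurons (1.17 ± 0.09), and EBF2 (6.97 ± 0.55, or 6.35 without D425 replicate 3 and 7.67 without D425 replicate 2) were higher as well. NEUROG2, which starts neurogenesis in cortical progenitors, had 4.35, 4.10 and 4.86 CPM in D425 and 0.133, 0.0977 and 0.0417 CPM in D458 (-5.55 ± 0.47). ZIC2 and ZIC5, zinc finger factors of the dorsal neural tube, were lower in D458 (-2.05 ± 0.29 and -4.13 ± 0.22). For none of the 6 genes given here did libraries of the lines overlap, which also held for 69.4% of all genes tested.

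Of 10 tested SOX genes 5 were higher and 3 lower, a share called of 80% beside 62.8% of all genes. SOX5 had 0.256, 0.224 and 0.191 CPM in D425 and 16.97, 17.8 and 20.98 CPM in D458 (6.36 ± 0.39), and SOX4, a partner of SOX11 in immature neurons, was higher by 1.27 ± 0.11. SOX21, a repressor in neural progenitors, had 23.6, 40.1 and 47.4 CPM in D425 and 0.355, 0.684 and 0.417 CPM in D458 (-6.26 ± 0.32, adjusted p = 7.8e-11). SOX2 and SOX9, usual factors of neural stem cells, were too low to be tested in either line. Of 24 tested GABA and glutamate receptor genes, 10 were higher in D458, 3 were lower and 11 were not called (median 0.96). The share called was 54.2%, beside 62.8% of all genes, of which 31.4% were higher and 31.4% lower. GABRQ, the theta subunit, had 10.02, 5.48 and 3.87 CPM in D425 and 112, 98.1 and 99.1 CPM in D458 (4.004 ± 0.27). GRIN1, the obligate NMDA receptor subunit, was lower (-3.24 ± 0.43).

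Photoreceptor genes are the other hallmark of Group 3 cells. Of 39 tested genes of phototransduction and photoreceptor structure, 12 were higher and 17 were lower in D458 (median -0.26). The share called was 74.4%, beside 62.8% of all genes, of which 31.4% were higher and 31.4% lower. Members in both directions are thus what the genes at large also showed. RBP3, the retinoid carrier between photoreceptors and pigment epithelium, had 151, 85.7 and 55.4 CPM in D425 and 678, 641 and 669 CPM in D458 (2.77 ± 0.25, adjusted p = 1.4e-07). GNB3, the beta subunit of cone transducin, had 252, 199 and 226 CPM in D425 and 918, 735 and 716 CPM in D458 (1.81 ± 0.17). RD3, which controls guanylate cyclase traffic (2.87 ± 0.20), EYS, a matrix protein of the outer segment (2.06 ± 0.12), and AIPL1, a chaperone of phosphodiesterase (0.92 ± 0.11), were higher in D458 too.

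Lower in D458 were other parts of the same machinery. GUCY2D, the cyclase that makes cGMP in photoreceptors, had 21.5, 28.9 and 37.1 CPM in D425 and 4.31, 4.64 and 4.67 CPM in D458 (-2.68 ± 0.23). RCVRN, the calcium sensor recoverin, had 10.9, 9.40 and 15.4 CPM in D425 and 2.00, 1.27 and 1.21 CPM in D458 (-2.99 ± 0.35). PDE6H, the inhibitory subunit of cone phosphodiesterase (-3.51 ± 0.40), and TULP1, a transport protein of the inner segment (-2.64 ± 0.18), followed. Among 19 retinal transcription factors 6 were higher and 8 lower, a share called of 73.7% beside 62.8% of all genes. The thyroid hormone receptor THRB, which specifies cone types, differed by -2.67 ± 0.23, the early eye field factor RAX by -3.89 ± 0.39 and PRDM1, which separates photoreceptor from bipolar fate, by -4.75 ± 0.48. RAX2, a close relative of RAX, was higher in D458 (1.43 ± 0.30). In the hairpin 8 libraries GUCY2D, PDE6H, TULP1 and THRB were again lower in D458, by smaller amounts (-1.43, -1.52, -1.75 and -1.18).

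Collagens had the lowest median of the gene lists with at least 10 tested members. Of 31 tested collagens 17 were lower and 6 higher in D458 (median -1.34), and all 23 differed by at least 2-fold. Type IV collagens build the sheets of basement membranes, and their 6 genes lie in head-to-head pairs, each pair read in opposite directions from a shared promoter. COL4A1, of the most widespread pair, had 74.8, 95.7 and 92.5 CPM in D425 and 0, 0 and 0 CPM in D458, at least 649-fold lower in D458 (adjusted p = 2.7e-10). Its partner COL4A2 had 165, 195 and 167 CPM in D425 and 0, 0.0489 and 0.125 CPM in D458 (-11.41 ± 0.40, adjusted p = 1.5e-12). Without D458 replicate 3, which held most of the few D458 counts, the COL4A2 value was -12.63. Both genes were thus high in each D425 library and at or near 0 in each D458 library.

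The stretch between both starts is shown because the pair moved together. It was taken from the RefSeq promoter table (GRCh38.p14, both genes matched) and lies at chr13:110307158-110307283. It spans 126 bases, is given on the plus strand, and holds no transcribed base of either gene. Capitals mark CCAAT and GGGCGG, which were searched on both strands and do not overlap here.
COL4A1 and COL4A2 shared promoter: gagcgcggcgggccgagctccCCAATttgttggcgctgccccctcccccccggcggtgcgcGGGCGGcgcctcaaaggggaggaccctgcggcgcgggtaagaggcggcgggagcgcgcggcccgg
CCAAT is the letter string of NF-Y boxes and GGGCGG that of SP1 boxes, and each occurred 1 time. Of 35097 promoters in the table, cut to the same 126 bases before the start, 21.1% held CCAAT, 34.6% held GGGCGG and 7.38% held both. The stretch had 20 CG dinucleotides, beside a median of 6 over those promoters. No methylation or binding was measured here, and the match describes letters only.

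The second pair moved in the same direction but stayed detectable. COL4A3 had 50.9, 60.03 and 51.8 CPM in D425 and 3.24, 5.33 and 4.38 CPM in D458 (-3.65 ± 0.34), and COL4A4 had 78.4, 89.3 and 66.7 CPM in D425 and 5.55, 9.24 and 8.09 CPM in D458 (-3.36 ± 0.37). Their starts lie 418 bases apart in the same table. In the third pair COL4A5 held 1 count in D425 and 91 in D458, a count ratio of 116 (95% counting interval 20.4 to 4649), and COL4A6 held 0 and 1. So the pair on chromosome X went the other way, at a low level, for COL4A5. COL16A1, a collagen that associates with fibrils, was higher in D458 (2.78 ± 0.29).

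Cell surface partners of the basement membrane were mostly lower as well. Of 29 tested integrins and laminins 16 were lower and 4 were higher in D458 (median -0.64). LAMA1, a laminin alpha chain of embryonic basement membranes, had 206, 265 and 267 CPM in D425 and 39.3, 53.9 and 47.1 CPM in D458 (-2.40 ± 0.17, adjusted p = 3.0e-09). LAMA5 differed by -2.69 ± 0.16, and the laminin receptor subunit ITGA3 had 14.8, 20.6 and 14.7 CPM in D425 and 0.355, 0.195 and 0.250 CPM in D458 (-5.93 ± 0.49). ITGA4, an integrin of leukocytes and neural crest, was higher in D458, with 15.4, 2.98 and 1.14 CPM in D425 and 81.2, 73.3 and 64.9 CPM in D458. D425 replicate 1 stood above the other two, and the log2 fold change of 3.50 ± 0.54 was 5.17 without it.

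Among 57 tested matrix glycoproteins, proteases and mesenchymal genes, 26 were lower and 18 higher (median -1.10), of which 25 and 15 by at least 2-fold. FBN1, the microfibril protein fibrillin, had 61.4, 121 and 58.5 CPM in D425 and 2.66, 2.98 and 3.67 CPM in D458 (-4.68 ± 0.33). TWIST1, a bHLH factor of mesenchyme, had 7.02, 4.92 and 3.91 CPM in D425 and no count in D458, at least 39.1-fold lower. VCAN, a large proteoglycan of the brain matrix, had 0.183, 0.224 and 0.191 CPM in D425 and 37.8, 42.7 and 41.5 CPM in D458 (7.64 ± 0.26, adjusted p = 6.9e-13). CILP, a cartilage matrix protein, was higher in D458 (8.88 ± 0.53, or 9.51 without D425 replicate 2), and much less so in the hairpin 8 libraries (2.60). TNC, a matrix glycoprotein that also marks WNT tumours, had 18.98, 5.22 and 4.64 CPM in D425 and 354, 45.6 and 39.3 CPM in D458. D458 replicate 1 stood far above the other D458 libraries, and the log2 fold change of 3.93 ± 0.89 was 2.13 without it and 4.89 without D425 replicate 1.

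Adhesion genes divided by family. Classical cadherins and non-clustered protocadherins were lower in 14 of 26 and higher in 5 (median -0.60), for example CDH2, N-cadherin (-3.44 ± 0.50), and CDH24 (-5.51 ± 0.26). CDH15, M-cadherin, was higher, with 1.02, 0 and 0.0953 CPM in D425 and 83.5, 55.3 and 53.6 CPM in D458, and its log2 fold change of 7.44 ± 0.55 became 10.15 without D425 replicate 1. Clustered protocadherins, which give neurons their surface identity, were higher in 23 of 37 and lower in 4 (median 1.63). Of all genes 31.4% were higher and 31.4% lower. Summed over the 37 members, the level per library did not rise, with 83.2 to 100.8 CPM in D425 and 79.1 to 99.3 CPM in D458. PCDHB11 had 0.402, 0.485 and 0.254 CPM in D425 and 8.44, 6.50 and 6.88 CPM in D458 (4.26 ± 0.29), and PCDHB2 had 2.01, 2.24 and 2.03 CPM in D425 and 7.33, 7.77 and 8.01 CPM in D458 (1.88 ± 0.25). A run of 11 PCDHB genes on chromosome 5, from PCDHB2 to PCDHB15, was higher in D458, by 1.45 to 6.23 on the log2 scale. A run was defined as at least 6 consecutive genes, all called in the same direction by 2-fold or more. Genes that were not tested or were under 1 CPM in the higher line were skipped. The shared direction within a run follows from this rule. PCDHAC2, at the end of the alpha cluster, was lower (-1.94 ± 0.18). Members of these clusters are close copies of one another, and reads that fit several of them could have been counted for the wrong one.

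Guidance and growth factor signals were lower in D458 more often than higher. Of 55 tested axon guidance genes 31 were lower and 8 higher (median -0.95). SLIT2, the repellent ligand of ROBO receptors, had 21.8, 38.03 and 27.5 CPM in D425 and 0.222, 0.586 and 0.375 CPM in D458 (-6.21 ± 0.38, adjusted p = 6.6e-10). EPHB4, an ephrin receptor, had 94.5, 95.6 and 99.2 CPM in D425 and 2.00, 3.52 and 3.67 CPM in D458 (-4.97 ± 0.22), and EFNB3, an ephrin ligand, held 1116 counts in D425 and 1 in D458. EPHA8 and SEMA6A were higher in D458 (2.43 ± 0.17 and 3.28 ± 0.28). Of 28 tested receptor tyrosine kinases 14 were lower and 7 higher (median -1.07). TYRO3 and PTK7 differed by -1.93 ± 0.10 and -1.73 ± 0.16, and the VEGF receptor KDR had no count in D458, at least 14.7-fold lower. FGFR2 was higher in D458 (1.47 ± 0.17).

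WNT signalling starts at Frizzled receptors and ends at TCF and LEF factors on DNA. Of 34 tested genes of this pathway 16 were lower and 7 higher in D458 (median -0.94). The receptor FZD4 had 33.4, 48.8 and 37.7 CPM in D425 and 1.02, 1.42 and 0.918 CPM in D458 (-5.16 ± 0.31), and FZD1 differed by -4.53 ± 0.33. At the nuclear end TCF7 had 30.9, 31.7 and 37.9 CPM in D425 and 0.933, 1.52 and 1.04 CPM in D458 (-4.85 ± 0.20, adjusted p = 3.9e-12), whereas LEF1 had 6.07, 7.91 and 10.3 CPM in D425 and 36.8, 40.3 and 36.9 CPM in D458 (2.23 ± 0.19, adjusted p = 3.3e-08). So the 2 related factors differed in opposite directions. The feedback targets NOTUM and AXIN2 were higher in D458 (3.01 ± 0.32 and 1.08 ± 0.21), and SP5, another target, was at 0 in D425 and at least 14.2-fold higher.

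In the Hedgehog pathway, which drives another subgroup of medulloblastoma, 7 of 17 tested genes were lower and 3 higher. The share called was 58.8%, beside 62.8% of all genes. SMO, the signal transducer, had 39.9, 46.9 and 38.5 CPM in D425 and 5.95, 9.82 and 9.47 CPM in D458 (-2.31 ± 0.20), and GLI2, its main activating factor, had 35.1, 44.7 and 45.2 CPM in D425 and 0.533, 0.342 and 0.375 CPM in D458 (-6.62 ± 0.48). GLI1, the usual readout of the pathway, had 5.16, 4.36 and 3.81 CPM in D425 and 4.35, 4.98 and 4.84 CPM in D458 and was not called (0.09 ± 0.29). With hairpin 8 the GLI2 difference was smaller (-2.61). Notch genes were higher in 7 of 23 and lower in 7, a share called of 60.9% beside 62.8% of all genes. NOTCH1 had 0.512, 1.16 and 0.826 CPM in D425 and 35.5, 27.3 and 25.6 CPM in D458 (5.14 ± 0.34, adjusted p = 2.1e-09), its ligand JAG1 differed by 2.21 ± 0.16, and HES6, a HES factor of neuronal precursors, by 2.14 ± 0.21. NOTCH3 was lower (-2.26 ± 0.38).

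BMP and TGF-beta genes were lower in 19 of 37 and higher in 10 (median -0.30). TGFBR2, the type II receptor that binds TGF-beta, had 18.5, 27.4 and 19.97 CPM in D425 and 0.178, 0.0489 and 0.0417 CPM in D458 (-7.86 ± 0.50, adjusted p = 9.8e-10), and the coreceptor TGFBR3 had 111, 109 and 109 CPM in D425 and 15.8, 19.8 and 18.02 CPM in D458 (-2.62 ± 0.12). Without D458 replicate 1 the TGFBR2 value was -8.80. The ligand BMP7 (2.49 ± 0.14) and the BMP antagonist CHRD (3.97 ± 0.22) were higher in D458. For retinoic acid, 7 of 16 tested genes were lower and 4 higher. Next to ALDH1A2, the retinal-reducing enzyme DHRS3 was lower (-3.83 ± 0.55, or -4.42 without D458 replicate 1) and the receptor RXRG was higher (1.24 ± 0.11).

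**Figure D3:**
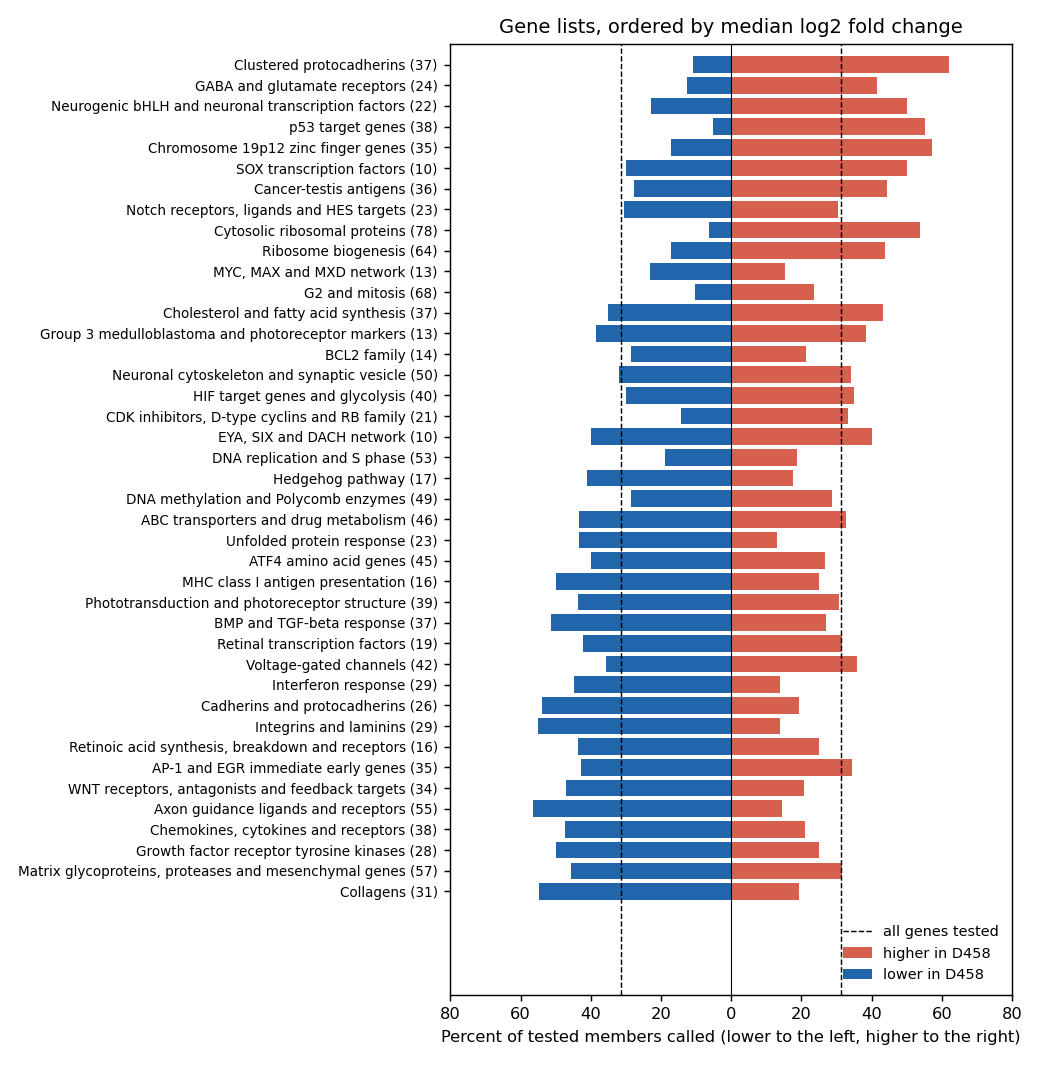
Percent of tested members called lower (left, blue) and higher (right, red) in D458 for each gene list with at least 10 tested members, ordered by median log2 fold change, with the number tested in brackets and dashed lines at the shares over all genes (31.4% each). Collagens and other matrix and receptor lists lie at the bottom with longer bars to the left, and clustered protocadherins lie at the top with the longer bar to the right.

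Ribosome and cell cycle genes were read next. Cytosolic ribosomal proteins were higher in 42 of 78 and lower in 5, but the median log2 fold change was 0.23 and 4 differed by 2-fold or more. RPL10 had 1213, 1040.1 and 1144 CPM in D425 and 2847, 2655 and 2941 CPM in D458 (1.31 ± 0.10, adjusted p = 8.0e-09). Many ribosomal protein genes have near-identical pseudogenes that could share their reads. RPL10 lies on chromosome X, on which most genes were higher in D458. Ribosome biogenesis genes were higher in 28 of 64 and lower in 11, none by 2-fold, with NOP2 at 0.77 ± 0.09 and BOP1 at -0.59 ± 0.10. DNA replication genes were higher in 10 of 53 and lower in 10, and G2 and mitosis genes were higher in 16 of 68 and lower in 7. In both cell cycle lists the share called (37.7% and 33.8%) was below the 62.8% of all genes.

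The p53 target genes were one of the more one-sided lists, with 21 of 38 tested targets higher in D458 and 2 lower (median 0.88). The share called was 60.5%, beside 62.8% of all genes, of which 31.4% were higher and 31.4% lower. p53 is the stress-activated factor that halts the cycle and triggers apoptosis. CDKN1A, the cell cycle inhibitor p21, had 0.475, 7.83 and 1.71 CPM in D425 and 97.1, 45.7 and 43.9 CPM in D458. All D458 libraries were above all D425 libraries, but the D425 libraries were widely spread, and the log2 fold change of 4.24 ± 0.96 (adjusted p = 0.0013) was 5.78 without D425 replicate 2. PLK2, a kinase induced by p53, had 0.146, 0.708 and 0.476 CPM in D425 and 27.6, 21.5 and 22.7 CPM in D458 (5.74 ± 0.30), and the apoptosis effector BAX had 51.6, 66.97 and 58.7 CPM in D425 and 133, 135 and 129 CPM in D458 (1.17 ± 0.14). SESN2 and GADD45A were lower (-1.56 ± 0.30 and -1.02 ± 0.18), and neither was called in the hairpin 8 libraries. Besides CCND2, the cell cycle regulators CDK6 (-2.28 ± 0.22) and CDKN2C (-4.06 ± 0.17) were lower in D458. The BH3-only protein BAD had 57.3, 66.7 and 72.02 CPM in D425 and 12.6, 14.9 and 14.5 CPM in D458 (-2.22 ± 0.12).

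By number of genes called, interferon, antigen presentation and cytokine genes were lower in D458 more often than higher. The shares called were 58.6%, 75% and 68.4%, beside 62.8% of all genes. Summed levels per library were not lower in D458. They were 462 to 493 CPM in D425 and 474 to 498 CPM in D458 for interferon genes. For antigen presentation they were 1832 to 2091 and 1924 to 2201 CPM, and for cytokine genes 970 to 1005 and 1444 to 1729 CPM. Interferon response genes were lower in 13 of 29 and higher in 4 (median -0.45), and IFITM3, a membrane protein that blocks virus entry, had 31.9, 41.5 and 23.3 CPM in D425 and 1.69, 1.22 and 1.29 CPM in D458 (-4.52 ± 0.33). IFITM2, its neighbour and close copy, held 571 counts in D425 and 3 in D458. Of 16 tested genes of MHC class I presentation 8 were lower and 4 higher. B2M, the invariant light chain, had 77.6, 97.5 and 99.8 CPM in D425 and 44.3, 46.7 and 45.5 CPM in D458 (-1.01 ± 0.11). Cytokine genes were lower in 18 of 38 and higher in 8 (median -0.999). The chemokine CXCL14 had 61.7, 76.96 and 64.8 CPM in D425 and 0.222, 0.244 and 0.0417 CPM in D458 (-8.64 ± 0.49), the receptor TNFRSF1A was lower (-5.95 ± 0.29, or -6.64 without D458 replicate 1), and MIF had 579, 578 and 597 CPM in D425 and 1149.5, 1464 and 1486 CPM in D458 (1.23 ± 0.09). IL15, an interleukin of lymphocyte survival, had no count in D425, at least 65.1-fold higher in D458.

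Metabolic and chromatin genes held single large differences inside lists of mixed direction. PFKFB3, the kinase that raises the glycolytic activator fructose bisphosphate, had 201, 313 and 373 CPM in D425 and 10.5, 13.3 and 15.6 CPM in D458 (-4.49 ± 0.22, adjusted p = 8.1e-11). CA12, a carbonic anhydrase of the cell surface, was lower (-7.32 ± 0.34), and LDHB, a lactate dehydrogenase chain, had 1014, 1005 and 1023 CPM in D425 and 2053, 2004 and 2202 CPM in D458 (1.04 ± 0.06, adjusted p = 3.3e-10). Over the 40 tested HIF targets and glycolysis genes 14 were higher and 12 lower (median 0.03). In lipid synthesis, where 16 of 37 were higher and 13 lower, the desaturase FADS2 and the regulator SREBF1 were lower (-1.48 ± 0.10 and -1.61 ± 0.16). DNMT3B, a de novo DNA methyltransferase, had 36.5, 62.3 and 70.7 CPM in D425 and 9.02, 11.7 and 13.2 CPM in D458 (-2.32 ± 0.26), and SMARCA4, the ATPase of the BAF complex, had 607, 650.5 and 604 CPM in D425 and 1031, 1228 and 1160.0 CPM in D458 (0.88 ± 0.10). Cancer-testis antigens, normally silent outside the germ line, were higher in 16 of 36 and lower in 10. MAGEC1 had 6.62, 7.20 and 6.92 CPM in D425 and 436, 412 and 439 CPM in D458 (5.96 ± 0.32), and MAGEC2, its neighbour on chromosome X, had 9.14, 2.83 and 1.91 CPM in D425 and 234, 237 and 237 CPM in D458 (5.69 ± 0.47, or 6.65 without D425 replicate 1). SAGE1, also on chromosome X, went the other way, with 594 counts in D425 and 1 in D458.

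The neighbourhood of MYC on chromosome 8 was examined gene by gene after its values had been seen. The genes named from it here (FAM84B, POU5F1B, CASC8, CASC21, CASC11, PVT1, MIR1204, TRIB1, NSMCE2, FAM49B and ASAP1) fall outside the naming rule. PVT1 is a long noncoding gene just beyond MYC, and CASC11 is a noncoding gene just before it on the opposite strand. PVT1 had 9.44, 10.7 and 9.18 CPM in D425 and 972, 1088 and 1208 CPM in D458 (6.80 ± 0.20, adjusted p = 1.8e-13), and MIR1204, the host segment of a microRNA inside PVT1, differed by 9.73 ± 0.35, or from 9.10 to 10.67 without D425 replicate 3 or 2. CASC11 had 375, 429.7 and 477 CPM in D425 and 2.84, 4.30 and 4.17 CPM in D458 (-6.82 ± 0.22, adjusted p = 5.6e-13). Between these genes, MYC itself did not pass the test. So of the genes directly on either side of MYC, CASC11 was abundant in D425 and PVT1 in D458, with ranges that did not overlap.

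Farther from MYC on the CASC11 side, POU5F1B, CASC8 and CASC21 were higher in D458. Beyond them FAM84B, TRIB1 and NSMCE2 were lower. FAM84B had 48.5, 91.1 and 87.1 CPM in D425 and 0.178, 0.195 and 0.0417 CPM in D458 (-9.08 ± 0.51). POU5F1B, a retrogene copy of the pluripotency factor gene POU5F1, had 0.805, 1.12 and 1.24 CPM in D425 and 73.8, 109.9 and 106 CPM in D458 (6.50 ± 0.48). TRIB1, a pseudokinase that directs protein turnover, had 130.3, 119 and 111 CPM in D425 and 48.5, 54.3 and 55.2 CPM in D458 (-1.19 ± 0.14), and NSMCE2, a SUMO ligase, differed by -1.03 ± 0.10. On the far side, FAM49B and ASAP1 were not called (-0.09 ± 0.12 and 0.10 ± 0.12). All of the differences called here had the same direction in the hairpin 8 libraries, PVT1 at 6.39 and CASC11 at -5.78. CASC11 lies close to MYC on the other strand, and PVT1 contains MIR1204. Whether the counting used strand is not given in the sources used here, so reads of overlapping transcripts cannot be assigned with certainty, and POU5F1B could share reads with POU5F1.

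**Figure D4:**
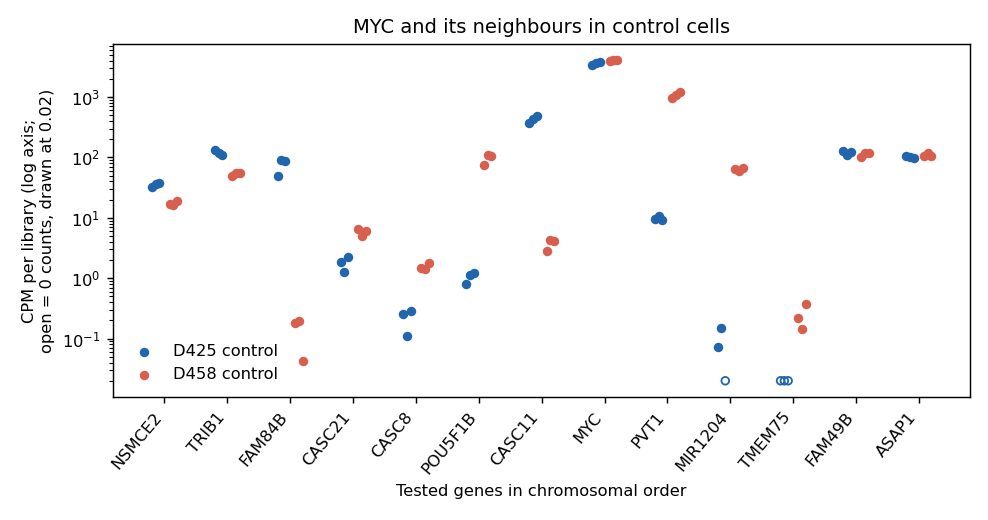
Level of MYC and 12 tested neighbours on chromosome 8 in each control library, in gene order, as CPM on a log axis, with D425 in blue, D458 in red and open points for libraries with no count, drawn at 0.02. MYC, FAM49B and ASAP1 are nearly level between the lines, CASC11 and FAM84B are high in D425, and PVT1, MIR1204 and POU5F1B are high in D458.

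Line differences were also ordered by chromosome, using 9649 genes that averaged at least 8 CPM over the control libraries. Gene order came from RefSeq, in which 13453 tested genes were matched by symbol, 1052 by synonym and 345 not at all. The median log2 fold change over all of these genes was 0.02, with 33.9% called higher and 32.4% lower. On chromosome X it was 0.70 and 80.3% of 330 genes were higher (6.97% lower). On chromosome 6 it was 0.56 with 67.6% of 469 genes higher, and on chromosome 19 it was 0.40 with 58.6% of 616 higher. At the other end stood chromosomes 20 (-0.48), 18 (-0.46), 11 (-0.39), 21 (-0.39) and 17 (-0.39), where 61.5% to 65.7% of genes were lower. When any single D425 or D458 control library was compared with the mean of the other line, the median of chromosome X ran from 0.58 to 0.75 and that of chromosome 11 from -0.43 to -0.36.

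Within chromosomes the medians changed at particular places when genes were taken in blocks of about 25 neighbours. Chromosome 6 lay between 0.46 and 1.05 in all 16 blocks from DUSP22 to MED23 and between -0.04 and 0.02 in the 3 blocks from STX7 to the end. Chromosome 1 lay between -0.31 and 0.10 in the 20 blocks up to GSTM3 and between 0.50 and 0.91 in the 10 blocks from MPC2 to the end. On chromosome 12 the 5 blocks from KDM5A to YAF2 lay between 0.42 and 0.74, and the next block, from ZCRB1, at -0.02. Chromosome 3 was negative in all 13 blocks up to TMEM39A and positive in 8 of the 9 from POGLUT1. Chromosome 18 stood at -0.07 and -0.14 in its first 2 blocks and at -0.77, -0.74 and -0.37 from TTC39C onward. On chromosome 8 the block from EXT1 to CASC11, just before MYC, had a median of -0.87 with 22 of 25 genes lower, and the next block, which starts with MYC, had 0.21.

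**Figure D5:**
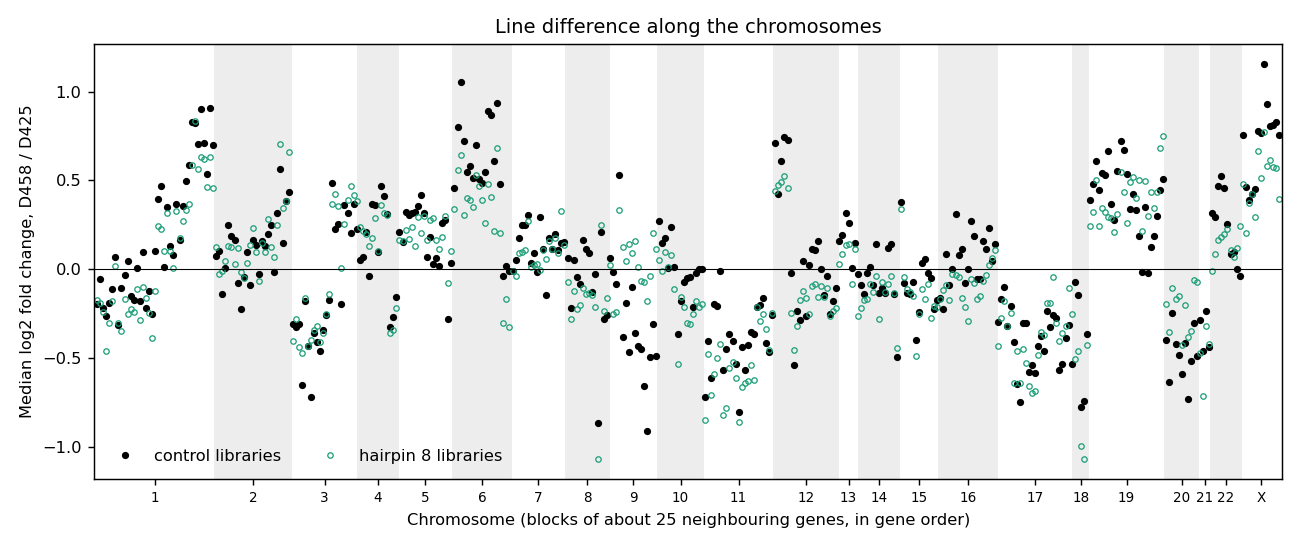
Median log2 fold change (D458 over D425) in blocks of about 25 neighbouring genes along chromosomes 1 to 22 and X, in the control libraries (black) and in the hairpin 8 libraries (green, open). Blocks of chromosomes 6 and X lie mostly above 0 and those of chromosomes 11, 17 and 20 below, and on chromosome 9 most green points lie above the black ones.

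In the hairpin 8 libraries the same chromosomes led, with medians of 0.50 for X, 0.33 for 6, 0.39 for 19, -0.54 for 11 and -0.75 for 18. The medians of several chromosomes moved, however. Chromosome 9 went from -0.27 in the controls to 0.01 in the hairpin 8 libraries, and chromosome 18 from -0.46 to -0.75. Chromosome 20 moved from -0.48 to -0.23 and chromosome 6 from 0.56 to 0.33. Chromosomes 12 (0.02 to -0.09) and 16 (0.07 to -0.09) changed sign at small values. The change on chromosome 9 lay in its 12 blocks from FAM122A to the end, which stood between -0.91 and -0.10 in the controls and between -0.18 and 0.20 with hairpin 8, and was not tested as a block. Copy number was not measured in these data. The chromosome X genes with the largest differences included neighbours. By the rule for runs given above, 8 genes from BEX1 to TCEAL4 formed a run higher in D458, by 1.17 to 10.26 on the log2 scale. A run of 7 from FGF13 to SLITRK2, which holds MAGEC1 and MAGEC2, was higher by 1.29 to 5.96. On chromosome 11 the same rule gave a run of 6 lower in D458, from ATHL1 to ANO9, with IFITM2 and IFITM3 in it.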

How the data were processed

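The D425 and D458 libraries were made from poly(A)-selected RNA and kept strand, per the labels' protocols. The authors deposited whole-number read counts per gene symbol, not normalized. The submitters' processing notes list HTSeq, TopHat2, Bowtie2, SAMtools, Picard, FastQC and bcl2fastq, and the builds GRCh37 and hg19. The sources used here do not give versions, the strand setting of the counting or how multi-mapping reads were treated.

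Of 25369 genes, 14850 passed filterByExpr (minimum count 10). TMM-scaled counts were fitted with edgeR 4.0.16 (limma 3.58.1, R 4.3.3) in a robust quasi-likelihood model of the 18 libraries that estimated each group separately. This left 12 residual degrees of freedom, and the common BCV was 0.153. Adjusted p values are Benjamini-Hochberg values over all genes tested. Folds against a line with no count are lower bounds with 3 counts per library as the floor. Ratios for lines with 1 to 3 counts carry 95% intervals, and both cover counting error only. Alternatives were DESeq2 1.42.0, its size factors, other filters, a replicate block and left-out libraries. On simulated counts of 14554 genes, 85 of 100 genes changed by 2 log2 units and 66 of 100 changed by 1 were called, with 16 false calls. All other genes were simulated without a change, whereas 9322 genes were called in the data. Adjusted p values depend on how many genes differ, so these rates do not carry over to the 9322 calls.

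The genes named are EYA2, MYC, MYCN and OTX2, the 12 largest called differences each way among genes averaging at least 10 CPM in the higher line, the 5 next smallest adjusted p each way, up to 4 called members per direction of each list, up to 6 genes per line of those found in 1 line only, and members that define a cell type. COL4A6 and the neighbours of MYC fall outside this rule and were chosen after their values were seen. The members and lists were chosen with earlier results of these data known. Genes of chromosome Y, and a few others, are not reported here.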

Additional observations from a re-analysis of the deposited data

Results flagged for a closer look

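The line difference was measured a second time in libraries with hairpin 8, and for 1758 genes its size differed from that in the controls, by edgeR's quasi-likelihood test of the interaction at an adjusted p under 0.05. Among the genes given with values in the report, 49 met this rule, and the numbers in brackets are the log2 line difference in hairpin 8 libraries minus that in control libraries. EYA2 was targeted in the hairpin 8 libraries of both lines and in none of the controls. Many of the genes given were named for large or low-p differences in the controls. That choice favours smaller differences in a second set of libraries, so the numbers of smaller and larger differences below are no result about these genes.

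In 18 genes that were higher in D458 controls the difference was smaller with hairpin 8. These were BMP7 (-1.27), CCND2 (-3.79), CHRD (-1.87), CILP (-6.28), EYS (-1.02), FGFR2 (-0.85), GABRQ (-1.24), JAG1 (-0.86), MAGEC2 (-2.38), MARC1 (-4.26), MIF (-0.50), MSN (-2.55), NEUROD1 (-1.46), RBP3 (-1.26), RD3 (-0.95), SOX11 (-4.59), SOX5 (-2.20) and VCAN (-1.99). The D425 control libraries together held 0 counts of SOX11, 2 of CCND2 and 0 of MARC1, so these sizes depend on the prior count of the fit. For GNB3 (0.86), POU4F1 (0.76), SEMA6A (1.39) and SLC1A3 (0.94) the difference was larger with hairpin 8.

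In 26 genes that were lower in D458 controls the difference was smaller with hairpin 8. These were BAD (0.79), BCMO1 (1.80), CASC11 (1.05), CDH24 (1.54), CDKN2C (2.02), CTSV (2.67), CXCL14 (4.22), DNMT3B (1.19), FZD4 (2.96), GADD45A (0.95), GLI2 (4.02), GRIN1 (2.17), GUCY2D (1.25), LAMA1 (0.84), NEUROG2 (3.20), NLGN1 (5.24), PALD1 (2.79), PDE6H (1.98), PDGFRB (1.55), SIX2 (0.81), SMO (1.07), SOX21 (2.76), TCF7 (1.27), TGFBR2 (3.17), THRB (1.49) and TULP1 (0.89). The D458 controls together held 2 counts of NLGN1, whose size depends on the prior count in the same way. CRX (1.31) was not called in the controls and was higher in D458 with hairpin 8. No other gene given with values in the report met the rule.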

How the results depend on the processing

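The count of 9322 genes called in the controls stayed within 1.5 times under each alternative run. It was 9307 with DESeq2 size factors (4499 higher, 4808 lower), 9236 without a filter on low counts, 7602 with at least 5 CPM in 3 libraries, 9011 with the 6 control libraries alone and 9419 with DESeq2. Leaving out single control libraries gave 8579 to 8974 calls, and leaving out a replicate number from every group gave 7182 to 9474. The hairpin 8 count was 8972, and 8303 to 9072 under its alternatives without the block. DESeq2 size factors moved the median log2 fold change of all genes by -0.023.

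With the replicate block, 10073 genes were called in the controls and 9870 with hairpin 8. After group means were removed, control libraries with the same number correlated between the lines at 0.212, 0.083 and 0.168. D458 replicate 2 correlated best with D425 replicate 3 (0.105), and every other control library with its own number. The labels do not say what a number marks, so the numbers were not taken to pair the libraries.

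The log2 fold change of 4 genes, none of them called, changed sign when libraries were left out. FAM49B ran from -0.21 to 0.029 (the latter without replicate 1), GABRA5 from -0.042 (without D458 replicate 2) to 0.24, with -0.013 without replicate 2 of every group. GLI1 ran from -0.050 (without replicate 3) to 0.27, with -0.011 without D425 replicate 3, and TUBB3 from -0.54 to 0.024 (the latter without replicate 2). OTX2 was not called with DESeq2 size factors (adjusted p = 0.050), without a filter (0.053) or with the 6 control libraries alone (0.051). NRL was not called without a filter (0.085), with at least 5 CPM in 3 libraries (0.051) or with the 6 control libraries alone (0.11). The causes were not tested. Genes with few counts in a line are limited by depth, and their bounds cover counting error only.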
